A study of Mus musculus with 2 samples.

Results

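Collagen chains and the enzymes that modify them were examined in stromal cells of the pregnant mouse uterus. They were taken as all probe sets whose single annotated gene symbol is that of a collagen alpha chain, together with 11 of 12 named enzymes and chaperones of collagen biosynthesis. The rule gave 77 of 20380 probe sets with 1 symbol, for 47 of 12393 genes. They comprised 9 fibrillar chains, 9 chains of basement membranes and their anchoring zone, 18 other chains, and 11 enzymes and chaperones. Loxl2 was represented by 1 probe set that is also annotated to a second gene, so it was not a member. Of the 47 genes, 33 were above the floor, a signal of 19.7, on at least 1 array, and 32 were above it on both.

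The stromal cells came from uterine horns digested with enzymes on day 5 of pregnancy, and RNA pooled over 3 animals was hybridised to 1 Affymetrix Mouse Genome 430A 2.0 array for each genotype. The knockout-labelled array holds cells of mice titled Hif1 cKO, with the genotype Hif2 alpha-null, and the control array holds cells of mice titled Hif1 flox control, with the genotype Hif2 alpha-intact. The breeding note gives a cross of Hif1 floxed animals with PRcre animals, which carry a Cre recombinase named for the progesterone receptor, and yet it names Rac1 as the ablated gene. Which gene was deleted is therefore unsettled, and each pool is a single sample in which the deletion reaches those cells that express the Cre. The ages of the mice were not given in the sources used here. With 1 array per group there was no replicate and no test, so every difference describes these 2 arrays. The available error was how far the log2 ratios of a gene's 2 brightest probe sets lay apart, which corresponds to an SD of 0.64 for a single log2 ratio (2660 genes). It holds nothing of the variation from mouse to mouse, from pool to pool or from array to array.

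The trimmed mean signal was 150.1 on both arrays, and 13374 probe sets lay above the floor on the knockout-labelled array, against 13777 on the control array. At the brightest probe sets Hif1a had signals of 1544 on the knockout-labelled array and 721 on the control array. Epas1, which encodes Hif2 alpha, had 78.1 and 59.4, and Rac1 had 757 and 1038. None of the 3 candidate targets was thus at the floor. Rac1 was also lower at its other measured probe set, with 332 and 664, which as deposited just passed 2-fold. Hif1a was also higher at its further measured probe sets, with log2 ratios of 1.38 and 0.52. A further probe set of each of these genes, Rac1 and Hif1a, was at the floor on both arrays. A probe outside the deleted exons does not check a genotype. The arrays also differed in the balance of 3' over 5' signal, which for b-actin was 16.0 on the knockout-labelled array and 2.27 on the control array. This imbalance divides the arrays exactly as the labels do, and its part in the values below cannot be told apart from the genotype. All 13 stromal markers were above the floor on at least 1 array, though Hand2 and Esr1 only just. At the brightest probe sets 1 of them (7.69%), Hoxa11, was at least 2-fold lower, against 13.0% of all genes. None was that much higher, against 6.21%, and the median log2 ratio of the list was -0.0018. Pdgfra, which sat at that median, had -1.70 at its other probe set. Vim (0.66, 0.26 and -0.58) and Nr2f2 (-0.54, 0.81 and 0.70) had both signs among their probe sets.

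Collagens are built from 3 alpha chains wound into a helix of repeated glycine-X-Y units. In the endoplasmic reticulum, prolyl hydroxylases stabilise that helix and lysyl hydroxylases prepare the sites of later cross-links, while the chaperone Hsp47 holds the folded procollagen. After secretion the propeptides are cut off and lysyl oxidases cross-link the fibrils. The uterine stroma is rich in collagen types I, III, V and VI, and this matrix is remodelled when stromal cells turn into the large secretory cells of the decidua. Prolyl and lysyl hydroxylases use oxygen as a substrate, and P4ha1, P4ha2, Plod1, Plod2 and Lox are textbook targets of hypoxia-inducible factors.

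On the knockout-labelled array Col1a1, Col1a2 and Col3a1 were brighter than on the control array by less than 2-fold at their brightest probe sets, a direction that Col1a2 and Col3a1 did not keep under quantile normalization or once the trend of ratio on signal was taken out. Of 11 enzymes and chaperones, 8 were dimmer, of which Serpinh1 turned to a log2 ratio of 0.058 when each array was centred on its median. Of the 33 genes compared, 8 (24.2%) were at least 2-fold lower, where 13.0% of all 8593 genes compared were that much lower. No member was at least 2-fold higher, where 6.21% of all genes were. Of the 8 genes, 5 are enzymes (Plod1, Plod3, P4ha2, P4ha1 and Loxl1) and 3 are chains outside the fibrillar class (Col12a1, Col4a6 and Col16a1). By any amount, 22 of 33 members were lower, against 55.3% of all genes, and 11 were higher, against 44.7%. The median log2 ratio was -0.23 for the members and -0.10 for all genes. These counts depended on the scaling. When each array was centred on its median, 2 members (6.06%), Plod1 and Col12a1, remained at least 2-fold lower, against 7.79% of all genes.

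**Figure D1:**
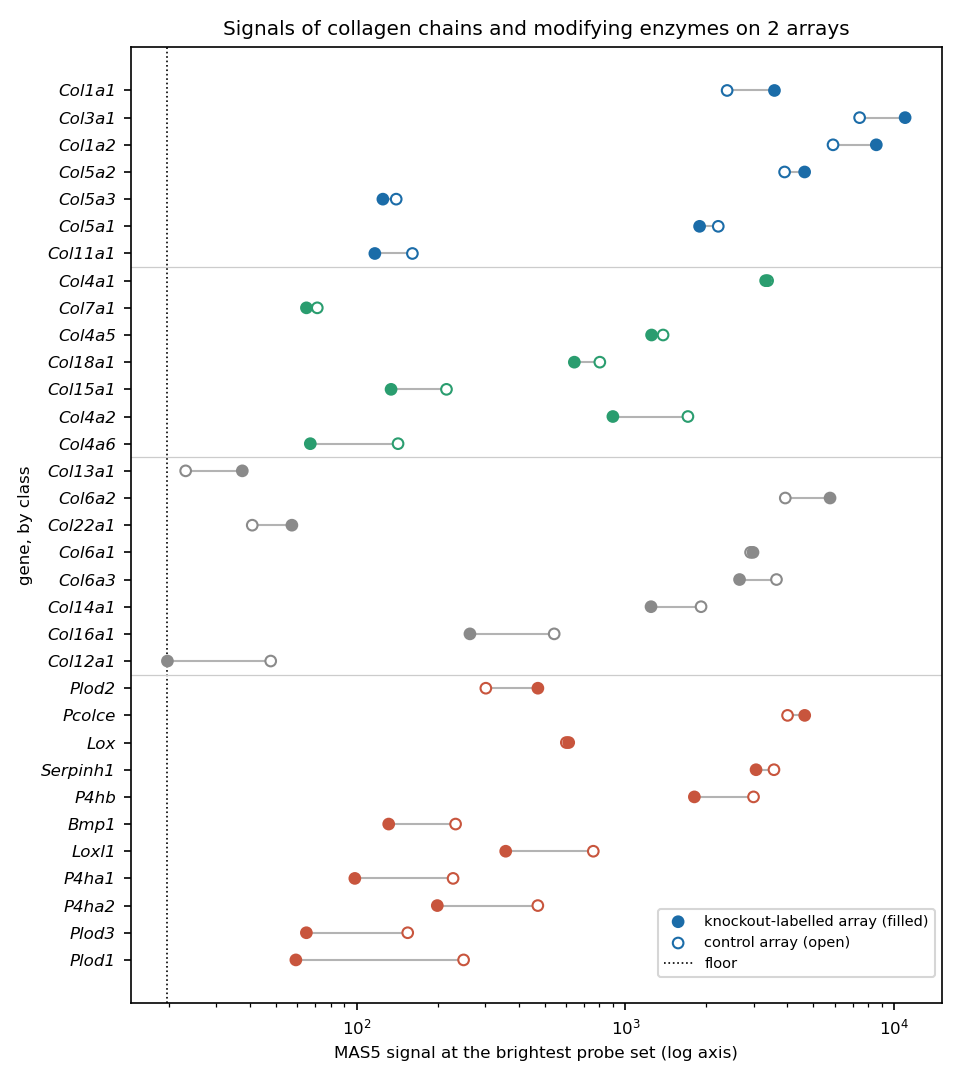
MAS5 signal (horizontal log axis) of the 33 compared genes at their brightest probe set, with filled points for the knockout-labelled array and open points for the control array. Genes run by class from fibrillar chains through basement membrane chains and other chains to enzymes, and the dotted line is the floor of 19.7, at which Col12a1 is drawn on the knockout-labelled array. In these signals, as deposited, filled points lie right of open points for Col1a1, Col1a2 and Col3a1 and left of them for 8 of 11 enzymes and chaperones.

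Among the fibrillar chains, the subunits of the rope-like collagens that give tissue its tensile strength, none of 7 compared differed by 2-fold. Among all genes, 13.0% fell and 6.21% rose by that much on the knockout-labelled array. With only 7 genes, a count of 0 does not set the class apart from these shares. The median log2 ratio was 0.25, with 4 genes higher and 3 lower. The median was -0.074 after quantile normalization, -0.058 after removal of the trend of ratio on signal, and -0.16 when a gene took the median of its probe sets, so the direction of the class was not settled.

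Type I collagen, the most abundant fibrillar collagen of connective tissue, is made of the chains encoded by Col1a1 and Col1a2. Col1a1 had a signal of 3586 on the knockout-labelled array and 2390 on the control array, a log2 ratio of 0.59. Its other probe set went the other way, with signals of 679 and 1623 (log2 ratio -1.26). The direction of Col1a1 therefore depended on the probe set. Col1a2 had signals of 8583 on the knockout-labelled array and 5923 on the control array, a log2 ratio of 0.54. At its other probe set the signals were 5079 and 5050, a log2 ratio of 0.01, so that probe set showed next to no difference. With the trend on signal removed, Col1a1 and Col1a2 had log2 ratios of 0.15 and -0.048, and after quantile normalization 0.32 and -0.074.

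Col3a1 encodes the only chain of type III collagen, which forms the thin fibrils of pliable tissues. It had the highest signal of any member probe set on either array, 10987 on the knockout-labelled array and 7439 on the control array, a log2 ratio of 0.56. The further probe set, at 3345 and 3007, gave 0.15, on the same side. The log2 ratio was -0.16 after quantile normalization and -0.058 with the trend removed, so this direction too rested on the scaling.

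Type V collagen co-assembles with type I and limits the width of its fibrils. Col5a2 had signals of 4644 on the knockout-labelled array and 3911 on the control array, a log2 ratio of 0.25, and its further probe set, at 1136 and 804, gave 0.50. Col5a1, its partner chain, had signals of 1888 and 2215 (log2 ratio -0.23). Both further probe sets of Col5a1 were also lower, with log2 ratios of -0.33 and -0.96. As deposited, Col5a2 was thus higher at both probe sets and Col5a1 lower at all 3, each by less than 2-fold, but at the brightest probe set Col5a2 turned to -0.25 with the trend removed and Col5a1 to 0.048 with median centring. Col5a3, a chain of a minor form of type V, had signals of 125 and 140 (log2 ratio -0.16, but 0.11 with median centring). Col11a1, a chain of the type XI collagen that is best known from cartilage, had signals of 117 and 161 (log2 ratio -0.46), but its other probe set gave 0.14. Col2a1 and Col11a2, the other cartilage chains on the array, were at the floor on both arrays.

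All 7 basement membrane chains compared were lower by some amount on the knockout-labelled array, against 55.3% of all genes, although Col4a1, Col4a5 and Col7a1 turned with median centring and Col7a1 also under both other scalings. By the 2-fold rule 1 of the 7 (14.3%) was lower, near the 13.0% of all genes. Basement membranes are the sheets under epithelia and around vessels and muscle cells, and decidual cells also lay them down around themselves. The median log2 ratio was -0.32, and it was below 0 under every alternative tried, with values from -0.75 to -0.036. The value of -0.036 came with median centring, which gave Col4a1, Col4a5 and Col7a1 log2 ratios of 0.25, 0.14 and 0.14.

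The most common network of type IV collagen is built from the chains of Col4a1 and Col4a2. Col4a1 had signals of 3325 on the knockout-labelled array and 3381 on the control array, a log2 ratio of -0.02, and 453 and 531 at its other probe set, a log2 ratio of -0.23. Col4a2 had signals of 898 and 1708 at its single probe set, a log2 ratio of -0.93, which passed 2-fold after quantile normalization (-1.08) and with the trend removed (-1.22). These neighbouring genes of chromosome 8, which are transcribed away from each other, gave unlike ratios at their brightest probe sets, but Col4a2 rests on 1 probe set. Between 2 probe sets of the same gene the difference had an SD of 0.91 over all genes, so this contrast was not settled. Col4a5 and Col4a6 are neighbours on the X chromosome and encode chains of other type IV networks. Col4a5 had signals of 1251 and 1381 (log2 ratio -0.14), and 112 and 269 at its other probe set (log2 ratio -1.26). Col4a6 had 67.2 on the knockout-labelled array and 142 on the control array (log2 ratio -1.08). Its other probe set, under the floor on the knockout-labelled array and at 55.9 on the control array, was at least 2.83-fold lower. As deposited, Col4a6 was thus lower by more than 2-fold at both probe sets, but its brightest probe set was under 2-fold with each rescaling, at -0.86 after quantile normalization, -0.81 with median centring and -0.85 with the trend removed. Col4a3 and Col4a4, the chains known from the kidney glomerulus, were at the floor on both arrays.

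The 3 remaining chains of this class were lower by less than 2-fold. Col15a1, a chain of the basement membrane zone of vessels and muscle, had signals of 134 on the knockout-labelled array and 216 on the control array, a log2 ratio of -0.69. Col18a1, whose C-terminal fragment is the angiogenesis inhibitor endostatin, had 645 and 803 at 1 probe set (log2 ratio -0.32) and 620 and 653 at the other (-0.07). Col7a1, the anchoring fibril chain of epithelia, had 65.0 and 71.3 (log2 ratio -0.13).

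Endothelial and smooth muscle cells also make basement membrane chains, and most of their markers were lower on the same array. Of 10 endothelial markers, 6 were lower by 2-fold or more, against 13.0% of all genes, and none was that much higher (median log2 ratio -1.17). Plvap alone of the 10 was higher (0.32), and their summed signal was 2213 on the knockout-labelled array and 3928 on the control array. Of 11 markers of smooth muscle and pericytes, 4 (36.4%) were lower by 2-fold or more at the brightest probe set. None was that much higher there (median log2 ratio -0.82), with summed signals of 12612 and 13075. Acta2 (0.56) and Rgs5 (0.57), the 2 brightest of these 11, and Notch3 (0.17) were higher at that probe set. Further probe sets of Rgs5 gave 0.62, -0.42 and -0.76, and that of Notch3 gave a bound of -0.28. Myh11 had -0.78 at its brightest probe set and 1.21 at its other. The directions of Rgs5, Notch3 and Myh11 were thus not settled. No marker of either list was at the floor on both arrays. In pooled RNA, fewer cells of a type and less RNA per cell cannot be told apart. The part of these cells in the lower signals of the basement membrane chains was not tested.

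The other chains compared went both ways, with 4 of 8 lower, against 55.3% of all genes, and 2 of 8 at least 2-fold lower, against 13.0%. Their median log2 ratio of -0.21 turned to 0.066 with median centring, and to 0.030 when Col12a1, which has only a bound, was left out. Type VI collagen forms beaded filaments around cells from the products of Col6a1, Col6a2 and Col6a3. Col6a1 had signals of 2984 on the knockout-labelled array and 2922 on the control array, a log2 ratio of 0.03 that turned to -0.25 after quantile normalization and -0.41 with the trend removed. Col6a2 had 5774 and 3934 at its brightest probe set (log2 ratio 0.55) but 1115 and 1520 at the other (-0.45). Col6a3 had 2659 and 3648, a log2 ratio of -0.46. No chain of type VI reached 2-fold, and Col6a2 had no settled direction.

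Col14a1, Col16a1 and Col12a1, which encode collagens that associate with the surface of fibrils, were lower. Col14a1, which binds fibrils of type I collagen, had signals of 1245 on the knockout-labelled array and 1912 on the control array (log2 ratio -0.62). Its further probe set, at 303 and 462, gave -0.61, so both probe sets of Col14a1 gave nearly the same ratio. Col16a1 had 264 and 543, a log2 ratio of -1.04. Col12a1, a relative of Col14a1, had a signal of 16.2 on the knockout-labelled array, under the floor, and 47.8 on the control array, which makes it at least 2.42-fold lower. Both Col16a1 and Col12a1 rest on 1 probe set. Col16a1 was under 2-fold lower with median centring (log2 ratio -0.76) and after quantile normalization (-0.99).

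Col13a1, a transmembrane collagen, had signals of 37.5 on the knockout-labelled array and 23.1 on the control array (log2 ratio 0.70). Col22a1, a collagen of tissue junctions, had 57.4 and 40.8 (log2 ratio 0.49), and its other probe set was at the floor on both arrays. Both genes lay close to the floor. Of the 18 other chains, 10 were at the floor on both arrays, namely Col8a1, Col9a1, Col9a2, Col9a3, Col10a1, Col17a1, Col19a1, Col20a1, Col25a1 and Col26a1. Several of these are known from cartilage (types IX and X), skin (type XVII) or nerve cells (type XXV). A signal under the floor does not show that a gene is silent.

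**Figure D2:**
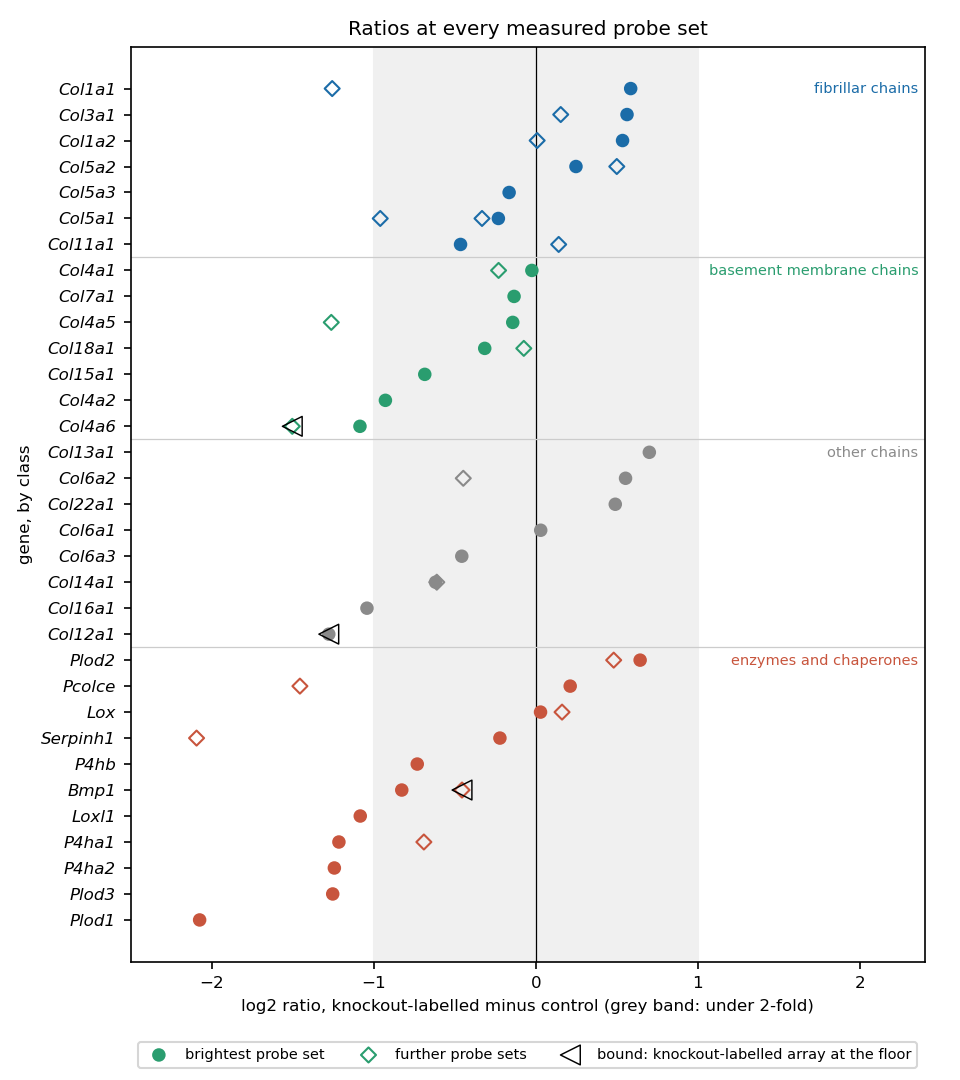
Log2 ratio, knockout-labelled minus control (horizontal axis), at the brightest probe set of each gene (filled) and at its further measured probe sets (open diamonds), with triangles for bounds and a grey band for differences under 2-fold. Fibrillar chains lie inside the band except the further probe set of Col1a1 at -1.26. Among the enzymes, Serpinh1 and Pcolce each have 1 probe set inside the band and 1 far below it.

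The enzymes and chaperones had the lowest median of the classes at the brightest probe sets as deposited. At the next-brightest probe sets the basement membrane chains lay lower, at -0.75 (4 genes), than the enzymes and chaperones, at -0.57 (6 genes). All 11 were above the floor on both arrays, 5 (45.5%) were at least 2-fold lower, against 13.0% of all genes, and the median log2 ratio was -0.83. That median was between -1.08 and -0.55 under the alternatives tried. With median centring only Plod1 of the 11 was at least 2-fold lower, and P4ha2, P4ha1, Plod3 and Loxl1 had log2 ratios of -0.96, -0.94, -0.97 and -0.80.

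The prolyl 4-hydroxylases, which hydroxylate proline in the Y place and so make the helix stable at body temperature, consist of catalytic alpha subunits and a shared beta subunit. P4ha1, the main alpha subunit, had signals of 98.4 on the knockout-labelled array and 228 on the control array, a log2 ratio of -1.21, and 32.3 and 52.1 at its other probe set, a log2 ratio of -0.69. P4ha2, the second alpha subunit, had 199 and 472 at its single probe set, a log2 ratio of -1.24. P4hb, the beta subunit and also the abundant protein disulfide isomerase of the endoplasmic reticulum, had 1805 and 2997, a log2 ratio of -0.73. All 3 subunits were lower under each scaling tried, P4hb by less than 2-fold as deposited and past it with the trend removed (-1.13).

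The lysyl hydroxylases did not move as a group. Plod1, which hydroxylates lysines in the helix, had a signal of 59.3 on the knockout-labelled array and 249.8 on the control array, a log2 ratio of -2.07. This was the lowest ratio of any member at its brightest probe set, and 0.850% of all genes compared had a lower one. Plod3, which also carries glycosyltransferase activity, had 64.9 and 155, a log2 ratio of -1.25. Plod2, which hydroxylates lysines in the telopeptides at the ends of the chains, had 472 and 302, a log2 ratio of 0.64, and 180 and 129 at its other probe set, a log2 ratio of 0.48. Plod1 and Plod3 were thus at least 2-fold lower at the 1 probe set each has, while Plod2 was higher at both of its probe sets by less than 2-fold. Plod2 kept its sign under every alternative tried, with log2 ratios of 0.48 to 0.92.

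Lysyl oxidases oxidise lysines of secreted collagen and elastin to start cross-linking. Lox, the founding member, had signals of 615 on the knockout-labelled array and 603 on the control array (log2 ratio 0.03), and 360 and 322 at its next probe set (0.16). Loxl1, which is known for its role in elastic fibres, had 358 and 759, a log2 ratio of -1.08. Lox thus showed next to no difference (-0.13 with the trend removed) and Loxl1, on 1 probe set, was just past 2-fold lower.

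Serpinh1 encodes Hsp47, the collagen-specific chaperone, and its 2 bright probe sets disagreed. One had signals of 3063 on the knockout-labelled array and 3571 on the control array (log2 ratio -0.22). The other had 910 and 3884, a log2 ratio of -2.09, or 4.27-fold lower. Both were lower as deposited, and the size was not settled. Pcolce, the enhancer of procollagen C-proteinase, showed the same kind of split, with 4647 and 4012 at the brightest probe set (log2 ratio 0.21, but -0.29 with the trend removed) and 447 and 1227 at the other (-1.46). Bmp1, the C-proteinase itself, had 131 and 233, a log2 ratio of -0.83, and a second probe set, at 19.5, under the floor, and 27.1, was at least 1.37-fold lower.

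Since hypoxia-inducible factors bind a core of ACGTG or GCGTG in many promoters, the 250 bases before the start of each gene in the RefSeq table of GRCm38.p6 were searched for these letters on both strands. The table held 34 of the 47 genes, 7 of them enzymes or chaperones (P4ha1, P4ha2, P4hb, Plod1, Plod3, Serpinh1 and Pcolce). It held no window for Plod2, Lox, Loxl1 or Bmp1. All 7 held at least 1 match, against 10 of 27 collagen chains and 41.5% of all 27025 genes in the table. Windows of the 7 genes were rich in G and C, with shares of 55.6% to 70.0%, and 61.3% of genes with a window of at least 55.6% G and C held a match. A match is a description of the letters and not a binding site.

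The windows of the 4 hydroxylase genes that were at least 2-fold lower are shown 5' to 3' on the strand of the gene, beside that of Col3a1, the brightest chain. Capitals mark ACGTG or GCGTG, or the same motifs read on the other strand as CACGT or CACGC. None of these windows held the palindrome CACGTG, in which both strands would match at overlapping places. Plod3 held 4 matches, P4ha1 and P4ha2 held 3 each, Plod1 held 1 and Col3a1 held none. The Col3a1 window was also the lowest in G and C of the member windows, at 35.2%. Among other members that were higher as deposited, Col1a2 held 2 matches. Pcolce, Col13a1 and a window of Col6a2 held 1 each, and Col6a1 held none. Col4a6, at least 2-fold lower as deposited, held none either.
Plod1 (GRCm38.p6, chr4:147936777-147937026, reverse strand): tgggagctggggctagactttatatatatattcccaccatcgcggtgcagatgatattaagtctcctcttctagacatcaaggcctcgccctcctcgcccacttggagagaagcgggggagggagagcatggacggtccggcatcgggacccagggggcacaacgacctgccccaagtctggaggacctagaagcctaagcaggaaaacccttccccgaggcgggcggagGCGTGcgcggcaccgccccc
Plod3 (GRCm38.p6, chr5:136986769-136987018, forward strand): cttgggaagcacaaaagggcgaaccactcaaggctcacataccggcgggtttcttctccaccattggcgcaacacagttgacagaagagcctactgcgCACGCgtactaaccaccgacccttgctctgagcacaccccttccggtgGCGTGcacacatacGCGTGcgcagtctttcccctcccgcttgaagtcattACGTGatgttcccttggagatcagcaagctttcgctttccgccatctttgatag
P4ha1 (GRCm38.p6, chr10:59323046-59323295, forward strand): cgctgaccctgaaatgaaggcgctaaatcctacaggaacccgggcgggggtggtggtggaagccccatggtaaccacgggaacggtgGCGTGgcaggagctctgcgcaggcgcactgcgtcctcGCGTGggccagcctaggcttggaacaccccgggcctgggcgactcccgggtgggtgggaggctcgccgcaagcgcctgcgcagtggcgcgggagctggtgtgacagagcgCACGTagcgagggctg
P4ha2 (GRCm38.p6, chr11:54100674-54100923, forward strand): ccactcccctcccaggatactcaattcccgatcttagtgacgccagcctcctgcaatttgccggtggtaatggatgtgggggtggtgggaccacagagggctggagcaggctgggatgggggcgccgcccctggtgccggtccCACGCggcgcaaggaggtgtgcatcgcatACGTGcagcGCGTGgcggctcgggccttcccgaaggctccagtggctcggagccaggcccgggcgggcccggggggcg
Col3a1 (GRCm38.p6, chr1:45311288-45311537, forward strand): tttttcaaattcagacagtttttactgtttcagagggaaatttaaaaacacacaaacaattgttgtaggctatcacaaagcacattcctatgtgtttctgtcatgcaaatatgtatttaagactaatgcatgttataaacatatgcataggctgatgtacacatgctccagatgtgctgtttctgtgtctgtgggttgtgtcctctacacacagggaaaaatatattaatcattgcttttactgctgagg

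**Figure D3:**
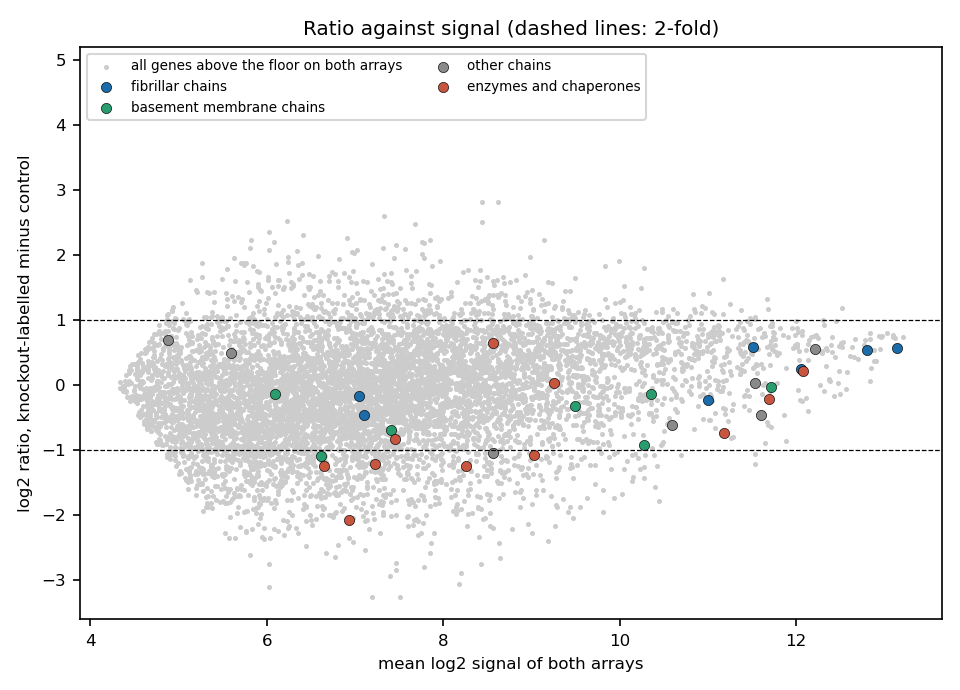
Log2 ratio, knockout-labelled minus control (vertical axis), against the mean log2 signal of both arrays (horizontal axis), with grey points for all 7866 genes above the floor on both arrays and coloured points for the 32 members. Dashed lines mark 2-fold. The 2 brightest chains, Col3a1 and Col1a2, lie above 0, and every member at least 2-fold lower has a moderate or low signal.

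Bright members had higher ratios than dim ones, as did genes at large. Of 12 members with a geometric mean signal above 2000, 7 (58.3%) were higher, against 79.6% of all 279 genes above it. None of the 12 was at least 2-fold lower, against 2 of the 279, and the median log2 ratio of the 12 was 0.12. Of the other 20 measured on both arrays, 4 (20%) were higher, against 44.3% of all 7587 such genes. At least 2-fold lower were 7 of the 20, against 987 of the 7587, and the median of the 20 was -0.65. For all genes the medians were 0.54 over 279 bright genes and -0.11 over 7587 others. Spearman's rho between mean log2 signal and log2 ratio was 0.40 over 32 members and 0.24 over 7866 genes. These are descriptions across genes on the same 2 arrays, and genes are not independent replicates. When the trend on signal was removed, 9 members were at least 2-fold lower, against 9.59% of all genes, with a median of -0.51 for the members and 0.0011 for all genes.

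Different probe sets of 1 gene often gave different ratios. Of 16 members with 2 probe sets above the floor on both arrays, 4 had opposite signs (Col1a1, Col6a2, Col11a1 and Pcolce), against 44.2% of 2660 genes. In 5 of the 16 (31.2%) the 2 ratios differed by at least 2-fold, namely Col1a1, Col4a5, Col6a2, Pcolce and Serpinh1, against 30.6% of all genes. The brightest probe set had the higher ratio in 10 of the 16 (62.5%), against 68.0% of all genes. Over all probe sets of the members, 13 of 52 compared were at least 2-fold lower, against 13.9% of 13284, and none was at least 2-fold higher, against 6.84%. The positions of the probe sets along the transcripts were not analysed here, and the part of the 3' over 5' imbalance in these disagreements was not tested.

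Other genes that process procollagen were lower in part. Of 17 compared, 6 (35.3%) were at least 2-fold lower, against 13.0% of all genes, and none was higher by that much. Their median log2 ratio was -0.26. Rcn3, a calcium-binding protein of the secretory pathway, had signals of 174 on the knockout-labelled array and 782 on the control array (log2 ratio -2.17). Crtap, a subunit of the prolyl 3-hydroxylation complex, had 296 and 955 (-1.69). P3h4, which works with lysyl hydroxylase, had 79.2 and 215 (-1.44). Colgalt1, which adds galactose to hydroxylysine, had 194 and 423 (-1.12), and 234 and 286 at its other probe set (-0.28). Loxl4, Tll1, Tll2 and Mia2 were at the floor on both arrays. Rcn3, Crtap, P3h4 and Colgalt1 were named for being past 2-fold. Other genes of the list were higher at their brightest probe sets, among them Ppib (0.69), Sec23a (0.56), Fkbp9 (0.52) and Hspa5 (0.29). These are all of the secretory pathway and were chosen after their values were seen. At their other probe sets Ppib, Fkbp9 and Hspa5 turned to -0.66, -0.89 and -0.55, so their direction was not settled.

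Regulators of fibril assembly differed in both directions. Of 14 compared, 3 (21.4%) were lower and 2 (14.3%) higher by 2-fold or more, against 13.0% and 6.21% of all genes, and the median log2 ratio was 0.10. Prelp, a leucine-rich repeat protein that anchors collagen to basement membranes, had signals of 85.3 on the knockout-labelled array and 298 on the control array (log2 ratio -1.80). Tnxb, a tenascin needed for collagen deposition, had 198 and 674 (-1.77). On the other side were the small leucine-rich proteins asporin and osteoglycin. Aspn had 109 and 32.2 (1.76), with 1.01 at its other probe set. Ogn had 643 and 204 (1.66), with 1.47 at its other probe set. Both genes were thus past 2-fold at both probe sets, where no collagen or modifying enzyme was that much higher at any probe set.

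Collagen receptors and inputs from transforming growth factor beta, the main inducer of collagen genes in fibroblasts, mostly lay inside 2-fold. Of 8 receptors and uptake genes compared, 1 (12.5%) was at least 2-fold lower, Mrc2, an endocytic collagen receptor, with signals of 138 on the knockout-labelled array and 293 on the control array (log2 ratio -1.08). None of the 8 was that much higher, and the median was -0.021. Of 16 genes of the growth factor pathway, 2 (12.5%) were lower and 1 (6.25%) was higher by 2-fold or more, near the 13.0% and 6.21% of all genes (median -0.19). Ltbp4, a binding protein of the latent factor, had 48.0 and 119 (log2 ratio -1.32). Ski, a repressor of Smad signalling, had 94.5 and 216 (-1.19), and its relative Skil had 681 and 222 (1.62).

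**Figure D4:**
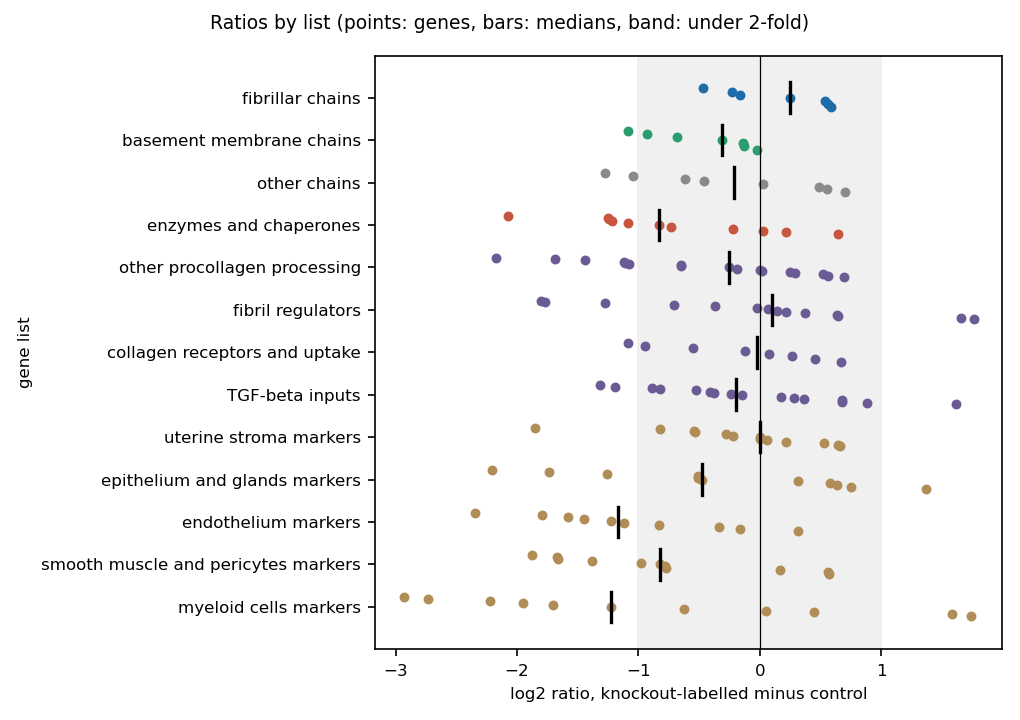
Log2 ratio, knockout-labelled minus control (horizontal axis), of each compared gene at its brightest probe set (points). Rows are the 4 member classes, 4 related lists and 5 marker lists. Bars mark the medians and the grey band marks differences under 2-fold. The median of the enzymes and chaperones lies at -0.83, that of the fibrillar chains at 0.25 and that of the stromal markers at -0.0018.

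Markers of other cells that a digest of the uterus can hold also differed. Of 11 epithelial and glandular markers compared, 3 (27.3%) were lower and 1 (9.09%) was higher by 2-fold or more, against 13.0% and 6.21% of all genes (median log2 ratio -0.48), with summed signals of 1936 on the knockout-labelled array and 2337 on the control array, and Krt19 was at the floor on both. Of 11 myeloid markers, 6 (54.5%) were lower and 2 (18.2%) were higher by 2-fold or more at the brightest probe set (median -1.23), with summed signals of 3561 and 4058. The 2 higher were Ptprc (log2 ratio 1.74) and C1qb (1.58). At its further probe sets C1qb had 0.54 and -2.68, so its direction was not settled. The part of these cells in the collagen and enzyme values was not tested.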

How the data were processed

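The authors deposited linear intensities, with a single MAS5 signal for each probe set. Per the submitters' processing notes, these came from Affymetrix Expression Console (version 1). The target of the scaling was not found in the labels, and the authors' scaling was kept. Genes were named through the platform annotation and RefSeq (GRCm38.p6, 20351 of 20380 probe sets matched by gene identifier). Of 22626 probe sets that are not controls, 691 with several symbols and 1555 with none were left out. Signals were raised to the 40th percentile of both arrays pooled (19.7) and put on a log2 scale. A gene took its probe set of highest mean log2 signal, and 3800 genes at the floor on both arrays were not compared.

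Groups follow the sample titles. The members, classes, lists and the naming rule (every member, up to 4 genes past 2-fold or the 2 brightest of a related list, and the labelled targets) were chosen with earlier results of these data known. With 1 array per group, differences are described by a 2-fold rule, without p-values, beside the same count over all genes. The number of arrays limits the precision. Python 3.11.15, pandas 2.3.3, numpy 2.4.6, scipy 1.17.1 and statsmodels 0.14.6 were used. Alternatives covered scaling, floor, pseudocount, choice of probe set and fold, and 2 were added after the data were seen.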

Additional observations from a re-analysis of the deposited data

Results flagged for a closer look

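The control probe sets, which enter no gene comparison, gave a b-actin ratio of 3' over 5' signal of 16.0 on the knockout-labelled array, against 2.27 on the control array, and a Gapdh ratio of 7.25, against 1.49. This stood out because data outside the gene comparison differed between the arrays.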

How the results depend on the processing

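As deposited, 8 of 33 members (24.2%) were at least 2-fold lower, against 13.0% of all genes. The count was 2 with median centring (6.06%, against 7.79% of all genes). It was 13 of 52 with every probe set counted (25%, against 13.9% of all probe sets). With the next-brightest probe set it was 5 of 18 (27.8%, against 14.97% of all genes). At 1.5-fold it was 13 (39.4%, against 26.4%), and at 3-fold it was 1 (3.03%, against 3.84%). The count stayed at 7 to 9 under the other alternatives. The share of members was thus below that of all genes with median centring and at 3-fold. The count of 0 members at least 2-fold higher was 3 at 1.5-fold (9.09%, against 18.5% of all genes). The median of the fibrillar chains turned to -0.074 after quantile normalization, -0.058 with the trend removed and -0.16 with the median over probe sets, and was 0.53 with median centring. The median of the basement membrane chains was -0.036 with median centring, -0.69 with the median over probe sets and -0.75 at the next-brightest probe set (4 genes). The median of the other chains turned to 0.066 with median centring and 0.030 without the gene at the floor on 1 array. It was -0.47 after quantile normalization, -0.66 with the trend removed, -0.46 with the floor at the 60th percentile or without _s_at and _x_at probe sets, -0.45 over every probe set and -0.53 at the next-brightest (2 genes). The median of the enzymes was -0.55 with median centring, -1.02 with the trend removed, -1.08 without _s_at and _x_at probe sets and -0.57 at the next-brightest (6 genes). The median of all genes was -0.10 as deposited, 0.033 after quantile normalization, 0.16 with median centring and 0.0011 with the trend removed, so the members lay -0.38, -0.11 and -0.52 from it under these 3, and -0.13 as deposited. Of 310 values of single genes under alternatives, 300 moved by less than 0.64, and none of the 8 genes past 2-fold as deposited changed sign. Part of this was fixed in advance and is no measure of stability. Leaving out the gene at the floor on 1 array repeats the values of the other genes. A gene with 1 measured probe set cannot move when the median over its probe sets is taken, which held for 6 of the 8. Causes were not tested. No paired analysis was possible because each group has 1 array. Col12a1, Col13a1 and Col22a1 could not be compared with the floor at the 60th percentile (66.3), and signals near it moved Plod1 to -1.91 and Plod3 to -1.22.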

Other observations

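Some members are neighbours on a chromosome. Col3a1 and Col5a2, next to each other on chromosome 1, were both higher on the knockout-labelled array, with log2 ratios of 0.56 and 0.25. Col6a2 and Col6a1 on chromosome 10 had log2 ratios of 0.55 and 0.03. Col4a1 (-0.02) and Col4a5 (-0.14) were close to 0 at their brightest probe sets, and their neighbours Col4a2 (-0.93) and Col4a6 (-1.08) were lower. Col4a5 had -1.26 at its other probe set, so its contrast with Col4a6 depended on the probe set. Col4a2 rests on 1 probe set, and its contrast with Col4a1 was not settled. The neighbours Col4a4 and Col4a3 on chromosome 1 were at the floor on both arrays. The probe set shared by Loxl2 and the gene model Gm21451 had signals of 115 on the knockout-labelled array and 131 on the control array, a log2 ratio of -0.19.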
